A study of Mus musculus with 7 samples.

Results

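T cells and natural killer (NK) cells were found in small number among single cells from a brain microvessel preparation of the mouse. They were chosen by the genes they expressed. A cell barcode had to carry at least 500 genes and at most 15% of its molecules from mitochondrial genes. It then counted as a member when at least 2 of Cd3e, Cd3d, Cd3g, Trac, Nkg7 and Gzma were detected, Cd79a and Ms4a1 were not, and the endothelial genes Cldn5 and Flt1 together gave at most 2 molecules. Of 39315 barcodes that passed the first step, 128 were members, which is 0.326% of them. The genes of this gate set who was a member, so their values are not given as results. Levels and detection of genes in members against other barcodes are therefore described without a test, and tests are run only on differences between the ages, in members and against the age difference in other barcodes.

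T cells recognise antigen through a receptor made of alpha and beta chains, or in a minority of cells gamma and delta chains, which signals through the CD3 complex. Naive and central memory T cells recirculate between blood and lymphoid organs and use Ccr7 and S1pr1 to do so, whereas resident memory cells stay in a tissue, often carry Cxcr6 and Cd69, and turn down S1pr1 and its activator Klf2. NK cells lack a rearranged antigen receptor and kill target cells with perforin and granzymes. In a healthy brain, lymphocytes are few and sit mostly in vessels, meninges and choroid plexus.

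All mice were untreated C57Bl6 animals, aged 12 months (3 libraries) or 3 months (4 libraries). Vessels came from 1 hemisphere without cerebellum, brain stem and olfactory bulbs, were loosened with collagenase and were captured on magnetic beads coated with an antibody to CD31, a surface protein of endothelium that leukocytes also carry. Single cells were sequenced on the 10x platform, which counts unique molecular identifiers (UMIs), 1 per captured RNA molecule. The labels do not say whether each library was a different mouse, so p-values measure the spread between libraries. Libraries of the 2 ages also differed in the version of the counting software and in the index, which was single at 12 months and dual at 3 months, and the female-specific RNA Xist was found in 3-month replicates 1 and 2 while the Y-linked Ddx3y was found in the others. Age, index type, software version and, in part, sex therefore cannot be told apart.

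The libraries held between 8706961 and 44861008 UMIs. The median member had 1656, 2244 and 2640 UMIs in 12-month replicates 1 to 3, against 2813, 4014, 3735 and 3525 in 3-month replicates 1 to 4. Members of 3-month libraries were thus the deeper ones, and a deeper cell passes a gate on detected genes more easily. No barcode of a member occurred as a member in 2 libraries. At the edge of the gate, 25 members had exactly 2 of the 6 gate genes and 152 barcodes outside had exactly 1. A further 38 barcodes with enough gene hits were outside for carrying 3 or more UMIs of Cldn5 and Flt1, and 10 for failing the step on genes and mitochondrial share. A doublet score marked 1 member, in 3-month replicate 1, where the number of barcodes marked in each library was set by an assumed rate.

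Members were 0.0756% of barcodes in 12-month replicate 1 (4 of 5289), 0.300% in replicate 2 (19 of 6331) and 0.412% in replicate 3 (40 of 9705). In the 3-month libraries they were 0.415% (17 of 4096), 0.339% (14 of 4130), 0.342% (20 of 5842) and 0.357% (14 of 3922). The 3-month shares lay close together, 12-month replicates 1 and 2 lay below their range and replicate 3 inside it, so the ages overlapped. The mean was 0.263% ± 0.171 (SD, n = 3) at 12 months and 0.363% ± 0.0353 (SD, n = 4) at 3 months, a difference of -0.101 percentage points with p = 0.286 in a two-sided exact permutation test. The low share of 12-month replicate 1 had a 95% exact binomial interval of 0.0206 to 0.194%, below the intervals of 12-month replicate 3 (0.295 to 0.561%) and 3-month replicate 1 (0.242 to 0.664%); these intervals cover counting error only. Without 12-month replicate 1, the difference was -0.0072 percentage points. That library also had the fewest UMIs.

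**Figure D1:**
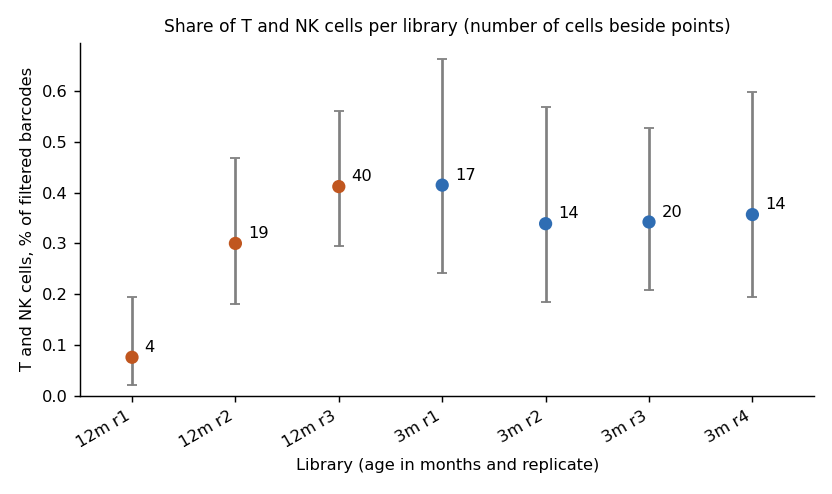
Share of filtered barcodes that are members (percent, vertical axis) in each of the 7 libraries, with 95% exact binomial intervals and the number of members beside each point (12m and 3m are the ages, r the replicate). The 3-month libraries sit between 0.339 and 0.415%, and the 12-month libraries between 0.0756 and 0.412%.

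Genes outside the gate went with the label. Trbc2, a constant part of the T cell receptor beta chain, was detected in 112 of 128 members and in 62 of the 39187 other barcodes. The beta chain constant genes Trbc1 and Trbc2 are close copies, so the split of molecules between them is uncertain. Ms4a4b, a membrane protein of T cells, was detected in 102 members, the receptor-proximal kinase Lck in 78, the interleukin-7 receptor chain Il7r in 78, the adaptor Skap1 in 76 and the co-stimulatory receptor Cd28 in 66. In CPM, the UMIs of a gene per 1000000 UMIs of the summed members of a library, Trbc2 was at 734, 1098 and 937 in the 12-month libraries and at 1267, 1407, 1290 and 1595 in the 3-month ones, and its mean over the 6 libraries with at least 10 members was 1266, against 1.08 in all other barcodes. Of the 8 T cell markers kept out of the gate, at least 1 was seen in 126 members and at least 3 in 99. The 25 genes that led the members over other barcodes, outside the gate, began with Trbc2, Trbc1, Cd8a, Ms4a4b and Cd8b1, and included Cd28, Skap1, Slfn1, Gzmb, Ccl5 and Bcl11b.

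Single variable segments of the receptor were also captured. Alpha variable (Trav) genes were seen in 21 members and beta variable (Trbv) genes in 15. Each of the 21 carried exactly 1 Trav gene, out of 16 different ones, and 14 of the 15 carried exactly 1 Trbv gene, out of 7. Among 33616 barcodes rich in endothelial genes, 2 had a Trav and 5 a Trbv molecule. Variable segments were captured in too few members to count clones.

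Marker genes of other cell types were also counted in members. The 10 endothelial markers, all detected, summed to 726 to 1430 CPM in the 12-month libraries with at least 10 members and to 335 to 789 at 3 months, against 32380 in the endothelial-rich barcodes. Of their 330 UMIs in members, Ly6a gave 58, in 29 members. Bsg gave 63 in the members with CD3 complex or Trac molecules but no Nkg7 or Gzma. It gave a further 37 in members with both kinds of gate gene and 10 in those with Nkg7 and Gzma alone. Whether members expressed such genes themselves was not tested. The 8 microglial markers summed to 82.9 and 175 CPM at 12 months and to 2292, 68.6, 0 and 38.0 in 3-month replicates 1 to 4. Replicate 1 stood apart through 1 member, which alone held 119 microglial UMIs, and 4 members in all carried 3 or more microglial genes. In the 12-month library with 4 members these sums were 8656 CPM for microglia and 5135 for endothelium. Choroid plexus markers summed to 249 and 45.9 CPM in 12-month replicates 2 and 3 and to 130, 1338, 1173 and 0 in the 3-month libraries, with at least 1 in 53 members and Clic6 and Folr1 at 0. B cell markers were seen in 38 members, mostly as Ighm (29 members), and summed to 145 to 165 CPM at 12 months and 130 to 228 at 3 months, with Ighd and Iglc2 at 0. Markers of monocytes and neutrophils were seen in 48 members and summed to 220 to 477 CPM at 12 months and 38.0 to 798 at 3 months, with S100a8 at 0. The dendritic cell genes Flt3, Xcr1, Clec9a and Cd209a were at 0 in members. Apart from the results given below without members or libraries rich in microglial markers, the part of these molecules in the age results was not tested. Pecam1, which encodes the CD31 protein used for capture, gave a UMI in 23 members (18.0%) and in 80.5% of endothelial-rich barcodes.

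The gate genes divided the members into 3 subsets. A set of 79 had CD3 complex or Trac molecules without Nkg7 and Gzma, 41 had both kinds, and 8 had Nkg7 and Gzma alone. The 8 came from 5 libraries, 3 at 12 months and 5 at 3 months. Genes outside the gate differed strongly between these subsets. Trbc2 was detected in 72 of the 79, in 37 of the 41 and in 3 of the 8. Bcl11b, a factor that fixes T cell fate, was detected in 43, 13 and 0 members of the 3 subsets in that order, and Il7r in 53, 25 and 0.

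The 8 members without CD3 genes carried an NK program. Perforin (Prf1) was detected in 7 of them, against 3 of the 41 and 0 of the 79. The activating NK receptor Ncr1 was detected in 6, 2 and 0, and Klrb1c, which encodes the NK1.1 antigen, in the same numbers. Klre1, a receptor of the lectin-like family, was detected in 7, 3 and 1, Klrk1 (NKG2D) in 7, 9 and 2, and the signalling adaptors Fcer1g and Tyrobp in all 8, against 6 and 4 of the 41 and 2 and 3 of the 79. The lectin-like receptor genes are a family of close copies, so counts of a single member are uncertain. The chemokine Ccl5 was lowest in the first subset and highest in the NK subset. It was at 180 CPM in the subset without Nkg7 and Gzma, at 2786 in the subset with both kinds and at 11230 in the NK subset.

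The 41 members with both kinds of gate gene were mostly of CD8 type. Cd8b1, the CD8 beta chain, was detected in 26 of 41 against 19 of 79, and Cd8a in 21 against 7. Cd4 was detected in 0 of 41 and 12 of 79, and Cd40lg, the helper ligand for B cells, in 0 and 17. Ctsw, a cathepsin of killer cells, was detected in 24 of 41 and 13 of 79. Only 1 member carried both Cd4 and a CD8 chain, and none carried a CD8 chain together with Ncr1, Klrb1c, Klre1 or Klra8. In barcodes that should lack these genes, detection was rare: Cd8b1 was found in 0.101% and Ccl5 in 0.187% of endothelial-rich barcodes, whose median depth was 1135 to 5526 UMIs per library.

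**Figure D2:**
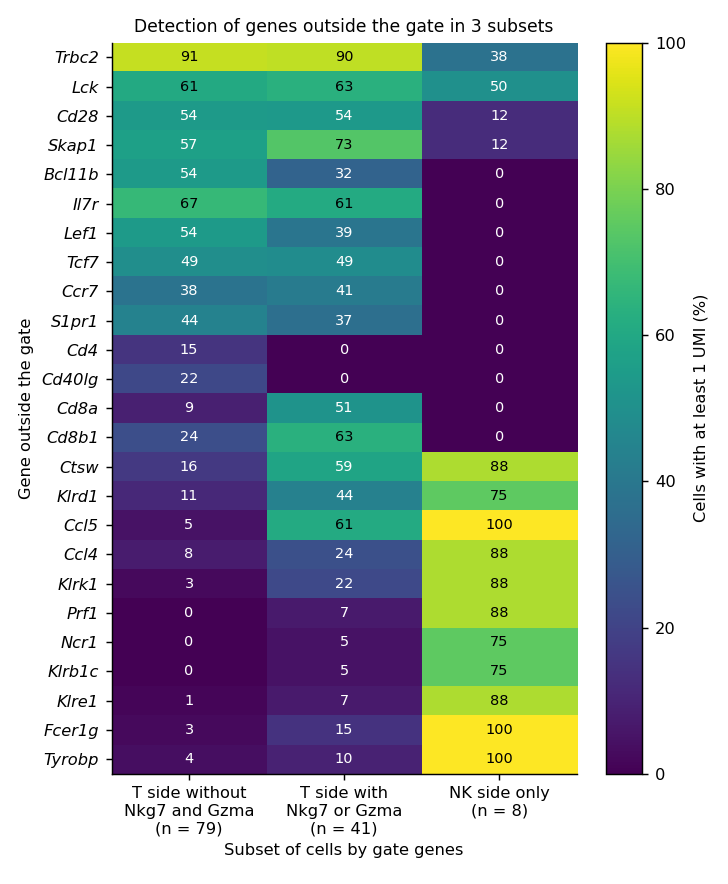
Share of members with at least 1 UMI of each gene (percent, as colour and number) in the 3 subsets set by the gate genes, 79, 41 and 8 members; the T side holds members with CD3 complex or Trac molecules. Trbc2, Il7r and Bcl11b are detected mostly in the 2 subsets with CD3 genes, Prf1 and Ncr1 mostly in the 8 members without CD3 genes, and Cd8b1 most often in the 41 with both kinds; no test applies.

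The make-up of the members by age was read from 9 small gene families, each counted as detected when any of its genes had a UMI. To allow for depth, the share expected at 700 UMIs per member was computed from each member's counts, in the 6 libraries with at least 10 members. With 2 libraries against 4 the exact permutation test has 15 splits and cannot give a two-sided p below 0.0667, so none of these shares could pass 0.05.

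Naive and central memory genes (Ccr7 or Lef1) were expected at 700 UMIs in 16.1 and 19.3% of members in 12-month replicates 2 and 3. In the 3-month libraries the values were 34.9, 30.4, 27.8 and 44.0%. Every 3-month library was above both 12-month ones. The means were 17.7% ± 2.29 (SD, n = 2) and 34.3% ± 7.14 (SD, n = 4), with p = 0.0667, the smallest possible, in the two-sided exact permutation test and 0.150 after Benjamini-Hochberg adjustment over the 9 families. As counts without that correction, 23 of 63 members had such a gene at 12 months and 46 of 65 at 3 months. Lef1 is also an endothelial gene, found in 65.0% of endothelial-rich barcodes. For Ccr7 alone the counts were 14 of 63 and 33 of 65.

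Residency genes (Cxcr6, Itgae or Itga1) went the other way. They were expected in 17 and 14.1% of members at 12 months and in 4.54, 7.33, 6.1 and 5.29% at 3 months, again without overlap. The exact permutation p was again 0.0667, and 0.150 after adjustment. Most of this family was Cxcr6, a chemokine receptor of tissue-resident lymphocytes, which was detected in 21 of 63 members at 12 months and in 4 of 65 at 3 months, 1 in each 3-month library. Itga1 is expressed by endothelium, whereas Cxcr6 was found in 0.0892% of endothelial-rich barcodes.

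Regulatory genes (Foxp3 or Il2ra) were expected in 3.03 and 3.87% of members at 12 months, in 0.861% in 3-month replicate 3 and in 0% in the other 3-month libraries. Cycling genes (Mki67 or Top2a) were expected in 9.55 and 5.68% at 12 months, in 1.1% in 3-month replicate 1 and in 0% in the rest. Each family gave p = 0.0667 in the exact permutation test and 0.150 after adjustment. They rest on few cells, 8 and 9 of 63 at 12 months against 1 of 65 each at 3 months. Foxp3 itself was found in 2 members and Il2ra in 7, so the regulatory family was mostly Il2ra. Of its 9 members, 7 had Il7r and 1 had Cd4. Whether they were regulatory T cells was not tested. Cd4 was expected in 0 and 1.79% at 12 months and in 4.46, 4.24, 1.84 and 6.34% at 3 months, and was detected in 2 and 10 members. The beta chain constant genes were expected in 63.7 and 54.3% at 12 months and in 72.9, 67.0, 67.4 and 79.4% at 3 months. Cd4 and the beta chain did not overlap between the ages either, at an exact permutation p of 0.133 and 0.200 after adjustment for each. CD8 chains (19.8 against 16.4% on average), NK receptors (7.16 against 8.59%) and gamma-delta chains (8.70 against 4.77%) overlapped between the ages.

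**Figure D3:**
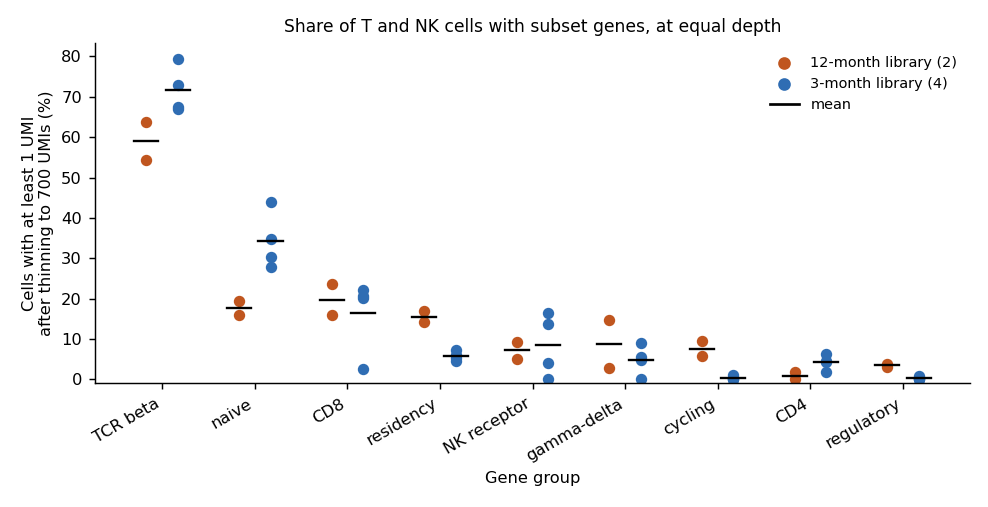
Share of members expected to show each gene family at 700 UMIs per member (percent), with a point for each of the 6 libraries with at least 10 members and a line at the mean of each age. Residency, regulatory and cycling genes are higher in both 12-month libraries and naive genes in all 4 of the 3-month ones, while CD8, NK receptor and gamma-delta families overlap.

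Naive and residency genes were also counted within the subsets. In the 79 members without Nkg7 and Gzma, 13 of 38 had Ccr7 or Lef1 at 12 months and 34 of 41 at 3 months, and Cxcr6 was found in 16 of 38 and 0 of 41. Ccr7 was found in 6 and 24, Tcf7 in 11 and 28, and S1pr1 in 9 and 26. Among the 41 with both kinds of gate gene, Ccr7 or Lef1 was found in 10 of 22 at 12 months and 12 of 19 at 3 months, Tcf7 in 7 and 13, S1pr1 in 2 and 13, Il7r in 10 and 15, Cxcr6 in 4 and 4, and Ccl5 in 18 and 7. Whether the subsets differed from each other in these age differences was not tested.

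Of the 25 members with Cxcr6, 21 were at 12 months, so shares pooled over the ages mix the 2 differences. Pooled, Ccr7 was found in 12% of them and in 42.7% of the other members, Klf2 in 40% and 91.3%, S1pr1 in 28% and 41.8%, and Cd69 in 64% and 50.5%. At 12 months alone, Klf2 was found in 8 of the 21 with Cxcr6 and in 36 of the 42 without, and Ccr7 in 3 and 11. S1pr1 did not follow this order there, with 6 of the 21 and 5 of the 42. These are counts over cells that share libraries, and are given as a description.

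Members with Tmem176b, a membrane protein of several kinds of immune cell, overlapped with them. Tmem176b was detected in 24 members, 18 of 63 at 12 months and 6 of 65 at 3 months. Of these, 17 also had Cxcr6 (70.8%, against 7.69% of members without Tmem176b), 16 had the neighbouring gene Tmem176a and 7 had a gamma-delta constant gene (29.2% against 5.77%). These shares are again pooled over the ages. At 12 months alone, Cxcr6 was found in 15 of the 18 with Tmem176b and in 6 of the 45 without, and a gamma-delta gene in 5 and 4. All 5 members with the cytokine gene Il17a were among the 24. They were 4 members at 12 months and 1 at 3 months, each with Tmem176b and Cxcr6 and 3 of them with a gamma-delta gene. Il17a was found in 1 of the 33616 endothelial-rich barcodes.

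Gene levels were then compared between the ages on UMIs summed over the members of each library, with edgeR's quasi-likelihood test, in 12-month replicates 2 and 3 and all 4 of the 3-month libraries. The 4 members of 12-month replicate 1 were too few for this fit. Of 691 genes tested, 5 passed an adjusted p of 0.05, which is 0.724% of them, and all 5 were higher at 12 months. Without correction for the number of genes, 104 (15.1%) had p under 0.05. Without 12-month replicate 3, which holds 40 members, no gene passed, at a smallest edgeR adjusted p of 0.135 and with 97 genes at an unadjusted p under 0.05. Leaving out 12-month replicate 2 left 2 genes, leaving out 3-month replicate 3 or 4 left 1, and leaving out 3-month replicate 1 or 2 gave 9 or 8. Without either 12-month library, 1 library stands against 4, and the fit assumes that it varies like the 3-month ones. Of the 5 genes, Hist1h2ap passed in each of these fits but that without 12-month replicate 3, and the other 4 were lost in 3 or 4 of the 6. Fewer T cells of a kind and less RNA per cell cannot be told apart in such sums.

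Tmem176b (chromosome 6, 48833818 to 48841496 in GRCm38, minus strand) was at 290 and 349 CPM in the 12-month libraries and at 37.3, 51.5, 58.6 and 19.0 CPM in the 3-month ones. Both 12-month libraries were far above all 4 others. The log2 fold change was 2.88 ± 0.45 (SE), with an edgeR adjusted p of 0.0188. In all other barcodes of the same libraries the gene differed by 0.24 (edgeR adjusted p = 0.802), and the difference between members and other barcodes was itself past the threshold, at 2.64 with an edgeR adjusted p of 0.00225 (0.969 without 12-month replicate 3, 0.0528 without 3-month replicate 1). Tmem176a, which lies next to it, was at 332 and 349 CPM against 0, 85.8, 58.6 and 0, and its change of 3.09 did not pass (edgeR adjusted p = 0.117). The call for Tmem176b was lost when any of 12-month replicates 2 and 3 or 3-month replicates 3 and 4 was left out, with log2 fold changes of 2.66 to 3.05 there.

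Fos (chromosome 12, 85473890 to 85477273, plus strand), an immediate early transcription factor gene, was at 1015 and 1259 CPM at 12 months and at 447, 429, 340 and 380 at 3 months. It was found in 16 of 19 and 34 of 40 members of the 12-month libraries and in 8 members of each 3-month library. Its log2 fold change was 1.55 ± 0.24 (SE; edgeR adjusted p = 0.0188). The other barcodes, in which 1.03% of the genes tested passed for age, showed the same size of change, 1.55 with an edgeR adjusted p of 0.0290, and the difference between the 2 was 0.01 (edgeR adjusted p = 1). Its partner gene Junb was at 1720 and 1773 CPM against 932, 703, 774 and 969, a change of 1.09 that did not pass (edgeR adjusted p = 0.0718). The 17 tested immediate early and stress genes had 13 positive changes and a median of 0.67, against a median of 0.07 over all 691 genes.

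Hist1h2ap, a replication-dependent histone H2A gene (chromosome 13, 21833026 to 21833507, minus strand), was at 497 and 570 CPM at 12 months and at 37.3, 17.2, 0 and 0 at 3 months. The log2 fold change was 5.30 ± 0.62 (SE), with an edgeR adjusted p of 0.00716. A single member held 23 of its 24 UMIs in 12-month replicate 2, and another 54 of 62 in replicate 3. Without those members the levels were 22.6 and 78.0 CPM. Histone genes of this cluster are near copies, which makes the count of a single gene uncertain. The non-coding RNA gene Gm10076 (1078 and 1948 CPM against 410, 137, 176 and 209) and the mitochondrial gene mt-Nd3 (1782 and 1378 against 298, 600, 528 and 399) also passed, at 2.76 ± 0.40 and 1.8 ± 0.30 (SE) with edgeR adjusted p of 0.0188 and 0.0225. Gm10076 differed as much in all other barcodes, by 2.82 with an edgeR adjusted p of 0.0363, and mt-Nd3 by 1.14 with 0.170.

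**Figure D4:**
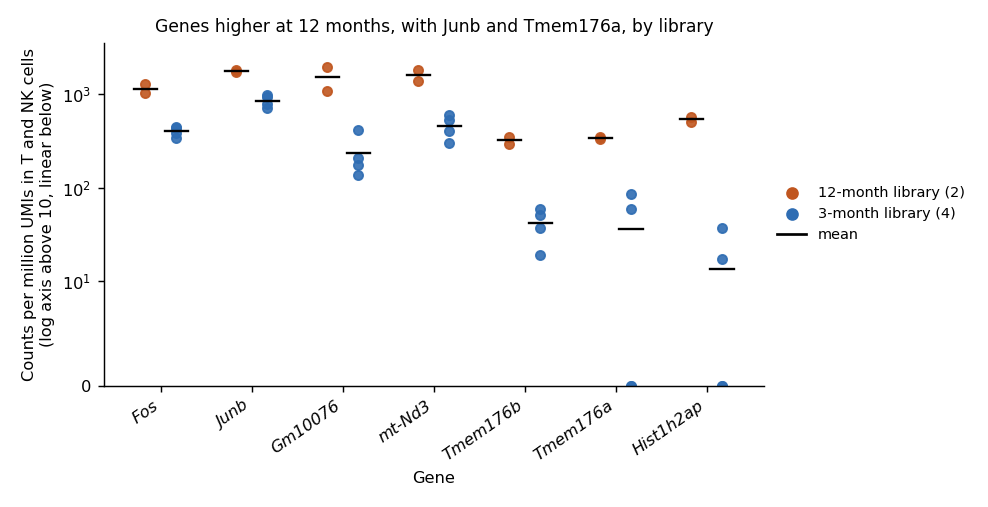
CPM in summed members (vertical axis, logarithmic above 10 and linear below) of the 5 genes past the threshold and of Junb and Tmem176a, which did not pass, with a point for each library with at least 10 members and a line at the mean of each age. Both 12-month libraries lie above all 4 of the 3-month libraries for each gene, and most of the Hist1h2ap counts come from 1 member per 12-month library.

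None of the 9 naive and central memory genes passed the test, but all 9 had negative changes, with a median of -0.96, whereas 46.2% of all genes tested were negative. For 7 of the 9 both 12-month libraries lay below all 4 of the 3-month libraries, against 14.8% of all genes tested, and 6 had an unadjusted p under 0.05. All gene lists here were chosen with earlier results of these data known. Genes of a list also share cells, with Ccr7 and Lef1 together in 37 members, so counts over a list are a description. S1pr1, the receptor for the lipid that draws T cells out of tissue, was at 62.2 and 91.9 CPM against 298, 257, 176 and 304. Its log2 fold change was -1.59, with an edgeR adjusted p of 0.148. Ccr7, the receptor for homing to lymph nodes, was at 41.4 and 165 CPM against 373, 223, 293 and 247 (-1.21, edgeR adjusted p = 0.278). The transcription factor Tcf7 was at 82.9 and 165 CPM against 261, 395, 282 and 608 (-1.46, edgeR adjusted p = 0.179).

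Klf2, which activates S1pr1 in T cells, was at 891 and 1259 CPM at 12 months and 2832, 1184, 1877 and 2165 at 3 months. The ages overlapped at 1 library, and the change of -0.85 did not pass (edgeR adjusted p = 0.275). The other barcodes went the opposite way, by 0.60, and the difference between the changes was -1.43 ± 0.26 (SE) with an edgeR adjusted p of 4.93e-04. Klf2 is also a flow-responsive gene of endothelium, and against the endothelial-rich barcodes alone the difference was -1.42. Without 12-month replicate 2 it was -0.99, with an edgeR adjusted p of 0.0783.

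On the residency side, 3 genes were tested and all were positive, with a median of 1.15, and 2 of them were higher at 12 months without overlap, against 14.3% of all genes tested. Cxcr6 was at 187 and 193 CPM against 55.9, 85.8, 117 and 76.0, without overlap (1.16, edgeR adjusted p = 0.275). Cd69, which keeps S1pr1 off the cell surface, was at 456 and 625 CPM against 205, 309, 235 and 266, also without overlap (1.15, edgeR adjusted p = 0.126). Rgs1, a regulator of G protein signalling, was at 228 and 202 CPM against 74.5, 377, 82.1 and 95 CPM, which overlap (0.48, edgeR adjusted p = 0.794). In 3-month replicate 3 a single member held 10 of the 10 Cxcr6 molecules.

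**Figure D5:**
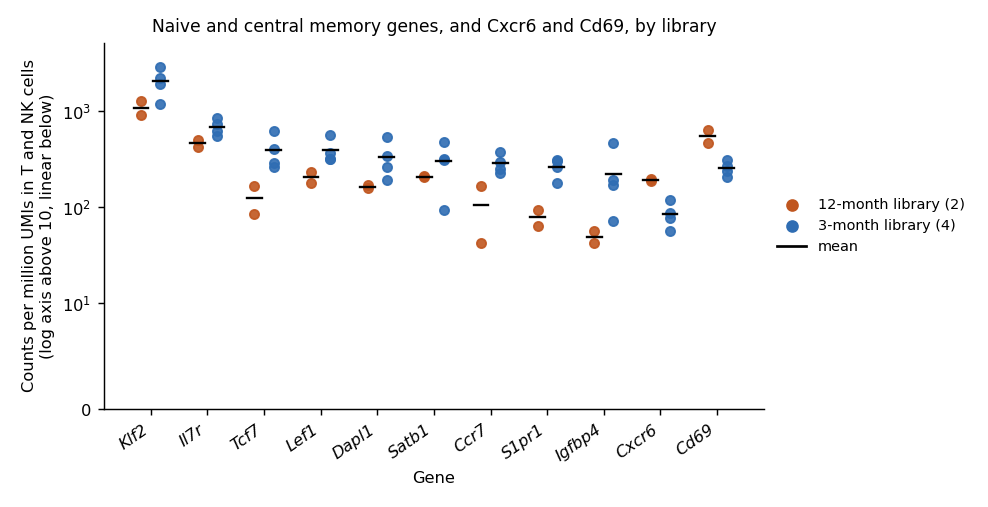
CPM in summed members (vertical axis, logarithmic above 10 and linear below) of the naive genes and of Cxcr6 and Cd69, with a point for each of the 6 libraries with at least 10 members and a line at the mean of each age. Ccr7 and S1pr1 are lower and Cxcr6 and Cd69 higher in both 12-month libraries than in all 4 of the 3-month ones, and none of these genes passed the adjusted threshold.

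Among other lists, genes of the T cell receptor and its signalling did not lean to either age, with 7 of 13 positive and a median of 0.12. Cytosolic ribosomal genes leaned to 3 months, with 59 of 77 negative (46.2% of all genes tested were), 40 of them lower at 12 months without overlap (14.8% of all genes) and a median of -0.28. Mitochondrial genes leaned to 12 months, with 11 of 12 positive (372 of all 691 genes tested were) and a median of 0.64. The other barcodes leaned the same way in these 6 libraries. Their median mitochondrial share was 4.99 and 4.09% in 12-month replicates 2 and 3, and lower in every 3-month library. In 12-month replicate 1, which is not in this fit, it was 1.94%. Whether this list departed in members from the lean in other barcodes was not tested. MHC class I genes were positive for 6 of 7 (median 0.53), interferon response genes for 4 of 4 (0.52) and actin and migration genes for 9 of 14 (0.22). The 16 listed interferon response genes summed to 5119 and 1681 CPM in 12-month replicates 2 and 3 and to 1149 to 2161 at 3 months, which overlap. NK receptors were negative for 3 of 3, with a median of -0.44. Only 1 gene of the CD4 and CD8 list had enough counts: Cd8b1 was at 290 and 377 CPM against 354, 68.6, 340 and 475, and overlapped. No gene of the gamma-delta, regulatory, checkpoint and clock lists had enough counts to test.

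The test of whether an age difference in members departed from that in all other barcodes of the same libraries called 25 of 13720 genes, or 0.182%, with 12 above (0.0875%) and 13 below (0.0948%). It called 40 genes without 12-month replicate 2, 9 without 12-month replicate 3 and 12 without either 3-month replicate 1 or 3-month replicate 3. Besides Tmem176b, Tmem176a (2.74) and Klf2, it called Stmn1, a tubulin regulator of dividing cells, at 3.64 ± 0.59 (SE) with an edgeR adjusted p of 1.25e-05. Stmn1 was at 394 and 165 CPM at 12 months and at 18.6, 34.3, 35.2 and 38.0 at 3 months. It was found in 14 members, and 1 member in each 12-month library held most of it, 17 of 19 and 14 of 18 UMIs. Without that member of each library the levels were 45.3 and 39.0 CPM, and the test was not run without them. Of those 14 members, 5 also had a cycling gene, all at 12 months. Cdc42se1, an effector of the small GTPase Cdc42, was found in 1 of 63 members at 12 months and in 26 of 65 at 3 months (-4.32 relative to the other barcodes, edgeR adjusted p = 0.0309). That call was lost when any library other than 3-month replicate 2 was left out, whereas Stmn1 passed in every such fit.

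Interferon-related genes in this contrast rested on 1 library. Cxcl10, an interferon-induced chemokine, had 33 UMIs in 8 members, 32 of them in 7 members of 12-month replicate 2, and none at 3 months. Isg15 was at 725 and 156 CPM against 168, 34.3, 23.5 and 38.0, which overlap, with a difference of 2.30 relative to the other barcodes (edgeR adjusted p = 0.00732). Without 12-month replicate 2 that p was 0.854. Of the 8 members with Cxcl10, 6 also had Isg15. The complement genes C1qa, C1qb and C1qc were called at -3.70, -4.00 and -3.51, but 1 member of 3-month replicate 1 held 32 of 51, 31 of 48 and 29 of 40 of their UMIs. Without that library the differences were 0.42 for C1qa and 0.47 for C1qc, and C1qb was at 0 in all remaining 3-month libraries.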

How the data were processed

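The deposited files of each library hold counts of UMIs per gene and cell barcode, without normalization. Cell Ranger wrote them, in version 4.0.0 where the mice were 12 months old and 6.1.1 where they were 3 months old, per the file headers. The build mm10 and Seurat are named in the submitters' processing notes. The rule by which barcodes were called cells was not stated there. Gene positions are from GENCODE on GRCm38, the same assembly, and 99.6% of the 32285 genes were found there. The members and the gene lists were chosen with earlier results of these data known.

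Barcodes were filtered and gated as stated above, 39315 of them in 7 libraries. The naive family and list were computed without 1 of their genes, which is not reported here. Doublets were scored with the scrublet method in scanpy 1.11.5 and left in for the main values. The barcodes with the highest scores were marked, at an assumed 0.8% for each 1000 filtered barcodes of a library. Endothelial-rich barcodes are those with more than 2 UMIs of Cldn5 and Flt1. Counts of members were summed per library and tested between the ages with edgeR 4.0.16 (R 4.3.3; quasi-likelihood test, TMM scaling, filterByExpr, Benjamini-Hochberg over all genes tested, threshold 0.05), in libraries with at least 10 members. The difference between members and all other barcodes was fitted on both sums of each library, with the library as a term. CPM are counts per 1000000 UMIs of the summed members. Shares were compared by exact permutation of the libraries, and shares of gene families were first put at 700 UMIs per member with the hypergeometric expectation. Binomial intervals are Clopper-Pearson at 95%. The edgeR and permutation scripts were tested on simulated data.

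Named genes passed the threshold with at least 50 CPM in members, with up to 10 in each direction by size for age and 5 for the difference between classes. For age the libraries also did not overlap. Gate, mitochondrial, ribosomal, sex-linked and predicted genes were left out of this rule. Up to 4 genes per list by level, the 25 genes leading over other barcodes and the family genes were described as well. Gm10076 and mt-Nd3, left out by it, and Il17a, Cd40lg and Pecam1 were added after their values were seen. DESeq2 1.42.0, other gates, filters, scalings and left-out libraries were tried as alternatives.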

Additional observations from a re-analysis of the deposited data

Results flagged for a closer look

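Among 107 groups of 4 values, 1 per 3-month library, 23 (21.5%) had a highest or lowest value far from the others by Dixon's criterion. Chance flags about 1 in 20 groups, and many of these groups hold few molecules or share cells, so they are not independent. In 3-month replicate 1 the median member had 933 genes, microglial markers summed to 2292 CPM and dendritic cell markers to 18.6 CPM, and the cycling share was 1.1%. Its CPM were far above the others for C1qa (596), C1qb (578), C1qc (540), Hcst (857), Isg15 (168) and Top2a (18.6). In 3-month replicate 2 the CD8 share at 700 UMIs was 2.65%, against 20.2 to 22.2% in the others. The CPM there was 806 for Xcl1, a chemokine of NK and CD8 cells, of which 1 member held 47 of 108 UMIs over all libraries, and 85.8 for Cdc42se1, which was low. Markers of type 2 innate lymphoid and mast cells and markers of fibroblasts summed to 17.2 CPM each in that library. In 3-month replicate 3 the regulatory share was 0.861%, and Gzmb and Il2rb were at 141 CPM each and Il2ra and Tcrg-C2 at 11.7 each. In 3-month replicate 4, T cell receptor signalling genes summed to 6495 CPM, platelet markers to 76.0 CPM, and Fcer1g was at 0.

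For 14 named genes the age difference in members departed from that in all other barcodes of the same libraries, by edgeR's test of that difference. The log2 differences were positive for Stmn1 (3.64), Tmem176a (2.74), Tmem176b (2.64), Odc1 (2.43) and Isg15 (2.30). Cxcl10 had a fitted value of 13.19, which is not a bound, since no 3-month member carried it. They were negative for Cdc42se1 (-4.32), C1qb (-4.00), C1qa (-3.70), C1qc (-3.51), Ctss (-3.48), Ccl3 (-3.05), Fcer1g (-2.30) and Klf2 (-1.43). Of these, the C1q genes and Ctss are also expressed by microglia. In members, microglial markers were at 2292 CPM in 3-month replicate 1 against 0 to 68.6 in the other 3-month libraries. In the other barcodes these markers were at 416 and 4303 CPM in 12-month replicates 2 and 3 and at 569 to 1308 at 3 months. The part of the other barcodes in the negative differences was not tested. Ctss was less concentrated than the C1q genes. It was found in 30 members, 21 of them at 3 months, and 1 member of 3-month replicate 1 held 13 of its 61 UMIs.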

How the results depend on the processing

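The difference in the share of members kept its sign and stayed short of the threshold under all 16 alternatives, from -0.175 to -0.0072 percentage points with 1 library left out and at -0.0248 when barcodes were thinned to 700 UMIs before the gate. The number of genes past the threshold between the ages, 5 in the main comparison, moved widely: 14 with at least 3 gate genes required, 2 with no UMI of Cldn5 and Flt1 allowed (5 libraries, 12-month replicate 2 being too small), 1 with barcodes of at least 300 genes (7 libraries, 12-month replicate 1 entering), 2 with members thinned to 700 UMIs, 3 with sums thinned to the smallest, 2 with all 7 libraries, 10 in the libraries with Ddx3y, and 32 (27 higher and 5 lower) without the filter on low counts. Leaving out 1 library gave 0 to 9. DESeq2 called 7. The test of members against other barcodes, 25 genes in the main comparison, gave 16 with at least 3 gate genes and 16 with no UMI of Cldn5 and Flt1, and 9 to 40 with 1 library left out.

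With the replicate number as a block, 0 genes passed between the ages (smallest edgeR adjusted p 0.148, 97 genes at an unadjusted p under 0.05). Same-numbered libraries deviated together with correlations of 0.06 and -0.04. With only 2 libraries of the older age and sums over few members, these values cannot decide whether the numbers pair the libraries. Under the block Trbc1 turned to 0.43.

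Reversals were found in small differences. The NK receptor difference turned positive with at least 3 gate genes (1.75), in the libraries with Ddx3y (0.34), in members with CD3 genes only (0.56) and in 3 fits with 1 library left out (range -4.29 to 1.23). The gamma-delta difference turned to -0.16 with no UMI of Cldn5 and Flt1, and ranged from -2.0 to 9.88 with 1 library left out. The CD8 difference turned to -1.67 in the libraries with Ddx3y and ranged from -1.25 to 7.08. All 7 libraries, including 1 with 4 members, were also compared by exact permutation. The beta chain (-13.7 percentage points), naive (-22.5) and residency (10.7) families gave the smallest possible permutation p, 0.0286, and 0.0857 after adjustment. Regulatory (2.08) and cycling (4.80) families gave a permutation p of 0.143 each, and 0.214 after adjustment. No family passed the threshold after adjustment. Of the 4 members of the added library, 2 were left without those carrying 3 or more microglial markers. In the age test, Cd8b1 turned to -0.11 without 12-month replicate 3, -0.14 without 3-month replicate 2 and -0.16 in the libraries with Ddx3y, and Trbc1 to 0.31 without 12-month replicate 3, 0.13 without 3-month replicate 1 and 0.013 with at least 3 gate genes (it was -0.71 without 12-month replicate 2). The differences for C1qa, C1qb and C1qc from other barcodes turned to 0.42, 9.22 and 0.47 without 3-month replicate 1, to 0.95, 9.31 and 1.02 without doublets, and to 1.02, 8.89 and 1.1 without members carrying 3 or more microglial markers, a setting chosen after seeing the data. Their lowest values with 1 library left out were -4.16, -12.50 and -3.95; the C1qb values beyond 8 in size were fitted against a group at 0. Except for the left-out samples and the fewer genes tested that a setting itself brings, the cause of these shifts was not tested. With 128 members, shares under a few percent and genes seen in under 10 cells carry a large counting error.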

Other observations

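Ifng, Tnf, Il2, Il4 and Il10 were each detected in at most 18 members, whereas another cytokine gene, Ltb, was found in 91 of 128. Ifng, the gene of interferon gamma, was found in 18 of 128, of which 14 were among the 63 members at 12 months (2, 7 and 5 in replicates 1 to 3) and 4 among the 65 at 3 months (0, 2, 2 and 0). Tnf was found in 14, with 2, 2 and 6 at 12 months and 2, 0, 2 and 0 at 3 months. Il2 was found in 2 members, and Il4 and Il10 in none of 128. Granzyme K, a marker of aged effector CD8 cells, was found in 3 members, all at 12 months, and the checkpoint receptor Pdcd1 in 6, of which 5 were at 12 months. These genes were named after their values were seen, and no test was run on them.

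Xcl1 was found in 14 members, 7 of which also had an NK receptor gene (50%, against 5.26% of the members without Xcl1) and 3 a CD8 chain. At 12 months alone, an NK receptor gene was found in 5 of the 11 with Xcl1 and in 1 of the 52 without. Members with a gamma-delta constant gene numbered 13, and 10 of these also carried Trbc2, while 1 carried a CD8 chain.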
